A study of Mus musculus with 15 samples.

Results

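The genes described here encode the machinery by which neurons store transmitter in synaptic vesicles, release it on calcium entry and take the vesicles back. They were chosen by name, as 46 listed symbols, and 45 of them had a transcript cluster naming that gene alone, out of 22180 genes in the table. The choice was made with earlier results of these data known, so shares set beside those of all genes are descriptive. Doc2a, a calcium sensor, was named only together with a neighbouring gene and was not analysed here. All 45 lay above the level under which the lowest 25% of genes were left out, and 16635 genes were tested. Thalamic cells of mouse embryos were sorted by fluorescence and their total RNA was measured on 15 arrays, as 3 biological replicates of each of 5 groups. The groups were double-labelled, red and green cells at E18.5 (embryonic day), from embryos exposed to 4 mg tamoxifen at E9, with red and with green cells at E14.5, from embryos exposed at E9.5. Every embryo was Gbx2CreER-IRES-EGFP/+::R26lsl-tdTomato/+ on a c57/BL6 background. The Gbx2 locus, which codes for a transcription factor of young thalamic neurons, thus drove EGFP (green) and a tamoxifen-activated Cre, and Cre turned on tdTomato (red) lastingly in cells that had it at the time of tamoxifen and in their descendants. The sorting gates are not given in the sources used here.

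Synaptic vesicles are held in clusters by synapsins, docked at the active zone by RIM, Munc13, bassoon and piccolo proteins with Rab3, and fused by a SNARE complex of a syntaxin, SNAP-25 and a synaptobrevin. Synaptotagmins sense the calcium that triggers fusion, complexins hold and prime the complex, and dynamin, endophilin and amphiphysin retrieve the membrane. Many of these genes are switched on while neurons leave the cell cycle, grow axons and form their first synapses, steps that thalamic neurons begin before birth.

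The promoters of the 3 members with a motif match are shown first, with that of Syn2 for comparison, because transcription of vesicle genes in neurons is known to be held off in other cells by the repressor REST at RE1 elements, and cyclic-AMP response elements (CREs) occur in the promoters of several neuronal genes. RefSeq windows (GRCm38.p6) of 250 bases before to 50 bases after the start site were found for 34 of the 45 members. The RE1 motif (TTCAG followed by CACC, any 2 bases, GGACAG, any base and GCC), searched on both strands with up to 3 mismatches in its 18 fixed letters, was in the windows of 2 of the 34 members, 5.88%, against 31 of all 27025 genes with a window, 0.115%. The CRE motif TGACGTCA, which reads the same on both strands, was in 2 of the 34 members, 5.88%, against 549 genes, 2.03%. Syn1 (minus strand, chrX:20920869-20921168) held an RE1 match with 1 mismatch on its own strand and a CRE. Rph3a (minus strand, chr5:121009489-121009788) held an RE1 match with 3 mismatches on the opposite strand. Sh3gl2 (plus strand, chr4:85205206-85205505) held a CRE. Syn2 (plus strand, chr6:115134652-115134951), the synapsin with the largest stage difference, held neither within these letters. The windows read 5′ to 3′ on the gene's strand, with the matches in capitals.
Syn1: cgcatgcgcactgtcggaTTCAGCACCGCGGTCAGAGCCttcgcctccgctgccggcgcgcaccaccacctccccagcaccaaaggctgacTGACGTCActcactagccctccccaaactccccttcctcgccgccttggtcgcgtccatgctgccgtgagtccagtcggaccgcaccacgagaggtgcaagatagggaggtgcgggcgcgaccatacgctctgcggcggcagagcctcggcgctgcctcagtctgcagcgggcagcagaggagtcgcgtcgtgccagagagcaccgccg
Rph3a: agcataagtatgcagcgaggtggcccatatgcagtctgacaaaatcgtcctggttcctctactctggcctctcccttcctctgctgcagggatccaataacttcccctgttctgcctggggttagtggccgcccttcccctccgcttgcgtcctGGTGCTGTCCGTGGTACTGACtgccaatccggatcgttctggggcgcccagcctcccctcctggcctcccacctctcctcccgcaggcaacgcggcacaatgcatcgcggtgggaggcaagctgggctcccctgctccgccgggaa
Sh3gl2: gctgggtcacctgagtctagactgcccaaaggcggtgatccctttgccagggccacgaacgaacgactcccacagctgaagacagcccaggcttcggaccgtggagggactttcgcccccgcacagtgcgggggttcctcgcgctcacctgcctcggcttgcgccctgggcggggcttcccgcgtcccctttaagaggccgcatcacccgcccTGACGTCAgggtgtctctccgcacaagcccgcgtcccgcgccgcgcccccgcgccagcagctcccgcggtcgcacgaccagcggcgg
Syn2: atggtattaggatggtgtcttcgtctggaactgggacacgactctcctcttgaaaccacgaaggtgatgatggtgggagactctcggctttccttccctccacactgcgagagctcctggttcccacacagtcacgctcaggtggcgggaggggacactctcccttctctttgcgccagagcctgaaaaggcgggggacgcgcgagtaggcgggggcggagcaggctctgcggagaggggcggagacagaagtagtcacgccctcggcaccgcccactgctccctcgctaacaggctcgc

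Signals are log2 values. The mean over all clusters lay between 6.17 and 6.19 on the E18.5 arrays and between 5.63 and 5.65 on the E14.5 arrays, so the stages were compared after quantile normalization of all 15 arrays, and red with green cells within a stage on the signals as deposited. Stage, day of tamoxifen and the deposited scale of each stage cannot be told apart. The E18.5 arrays varied more: the median SD within a group over the members was 0.231 at E18.5, against 0.131 at E14.5. At E18.5, replicate 1 of the red and of the double-labelled cells stood apart by a narrower range of all their values, with SDs of 1.34 and 1.31 against 1.44 to 1.51 on the other 7 E18.5 arrays. Among the 9 E18.5 arrays, red replicate 1 gave the highest quantile-normalized signal for 21 of the 45 members, where it did so for 21.3% of all genes tested. On the deposited scale 8 members had 1 identical value on 3 or more E18.5 arrays (Syp, Synpr, Syngr3, Syt7, Rims2, Rims3, Rims4 and Bsn), as did 19.8% of all clusters and 0.0414% at E14.5, and an SD over such values is no measure of spread. Gbx2, whose locus the sort relied on, differed between red and green cells by -2.07 at E18.5 (limma adjusted p = 0.0149) and by -0.77 at E14.5 (limma adjusted p = 0.0113).

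**Figure D1:**
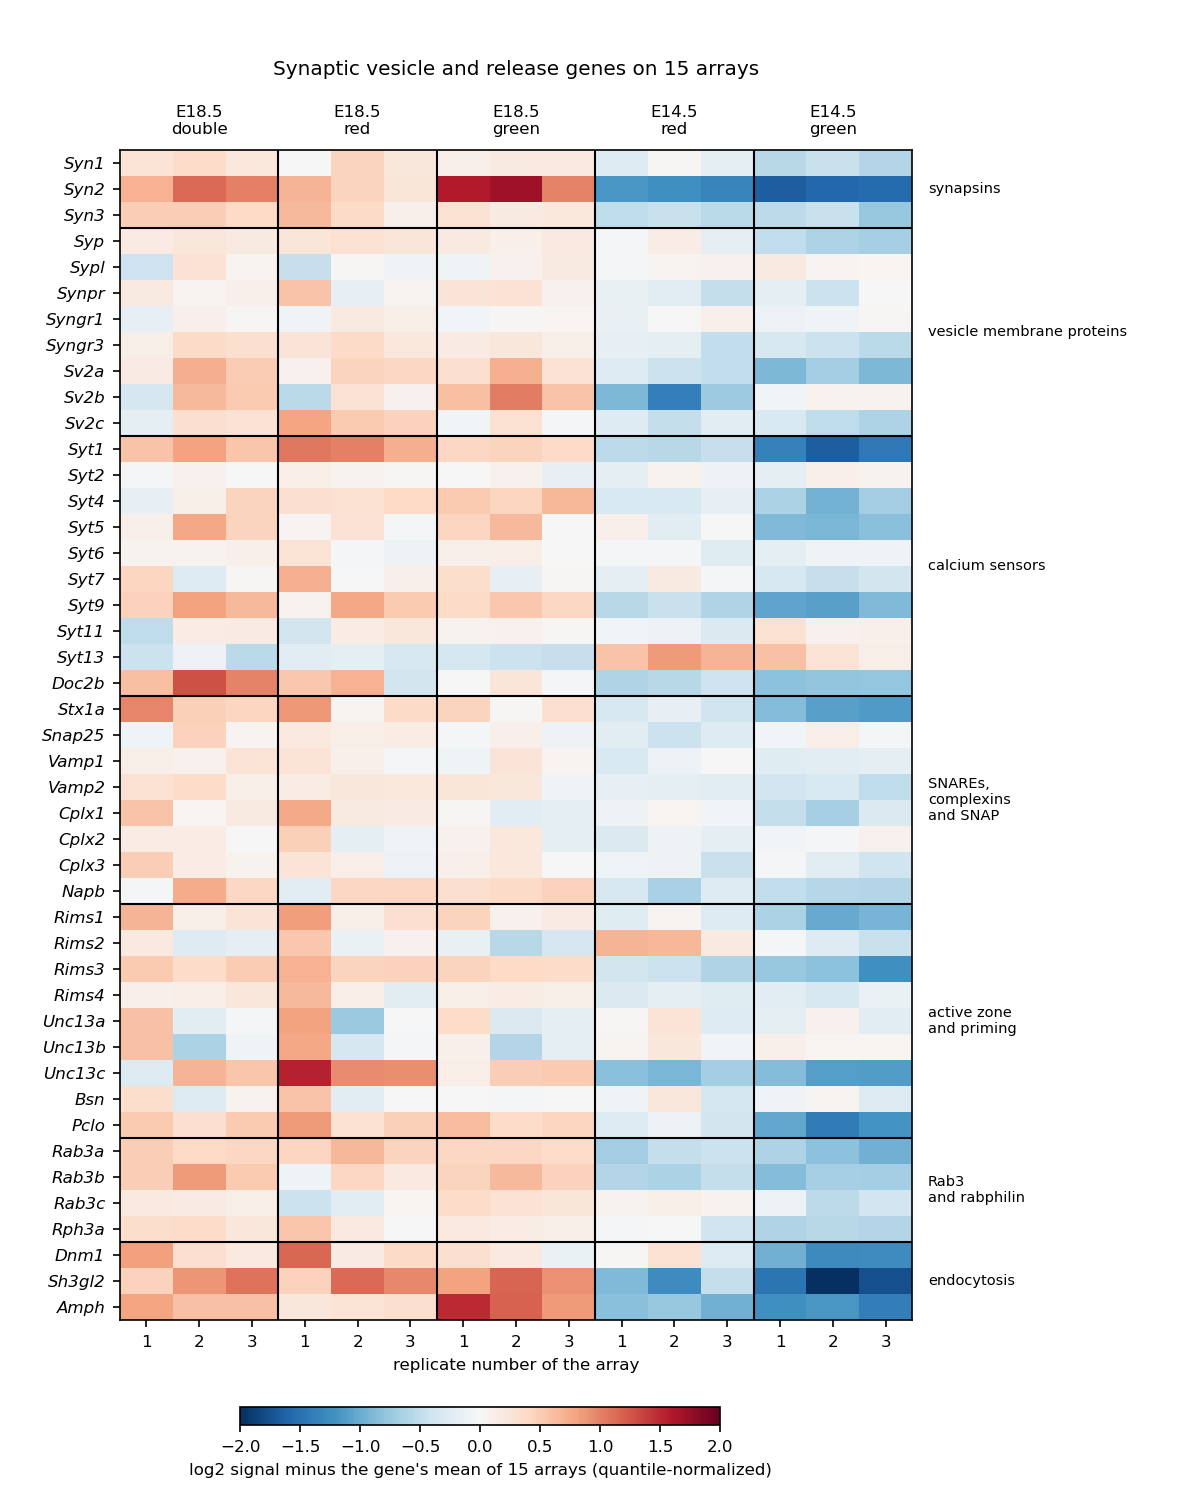
Quantile-normalized log2 signal of each of the 45 members (rows, by role) on each of the 15 arrays (columns, by group and replicate number), less that gene's mean over the arrays, on a colour scale from -2 to 2. Most rows are red on the 9 E18.5 arrays and blue on the E14.5 arrays, most deeply in E14.5 green cells. Syt13 runs the other way. Rows without such a step include Unc13a, Unc13b, Bsn, Syt2, Syngr1, Rims2, Sypl and Syt11.

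A majority of the 45 vesicle and release genes rose at E18.5 relative to E14.5 in each population. In red cells 25 of the 45 members rose and 1 fell by limma's moderated test at an adjusted p under 0.05, where 13.7% of all genes tested were called higher and 15.6% lower. In green cells 27 rose and 1 fell, against 16.8% of all genes called higher and 18.9% lower. Without the pair of narrow-range arrays 24 rose and 2 fell in red cells, and 23 of the 26 called with them were still called. The median difference over the members was 0.43 in red cells and 0.69 in green cells on the log2 scale, beside a median over all genes of -0.03 in each. 23 members rose in both populations, 1 fell in both and 15 passed in neither. Syp, Syt5, Rab3c and Dnm1 passed in green cells alone, and Snap25 and Rims4 in red cells alone, which by itself does not show that the populations differed. The red call for Rims4 (0.42) was lost in 9 of the 14 other settings, and without E18.5 red replicate 1 the difference was 0.19 (limma adjusted p = 0.233). For Rab3c the green call was lost with both of its clusters averaged. The quantile-normalized means of the 45 members were 7.64 to 7.83 on the E18.5 red arrays, 7.70 to 7.77 on the E18.5 double-labelled arrays and 7.62 to 7.72 on the E18.5 green arrays, against 7.15 to 7.23 on the E14.5 red arrays and 6.87 to 6.97 on the E14.5 green arrays. On the deposited scale, whose median over all genes differed by 0.60 in red and 0.61 in green cells, 43 members passed in each population. Relative to the median gene 41 of 45 members were higher in red and 40 in green cells after quantile normalization, and 40 and 40 as deposited and with each array centred on its median.

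**Figure D2:**
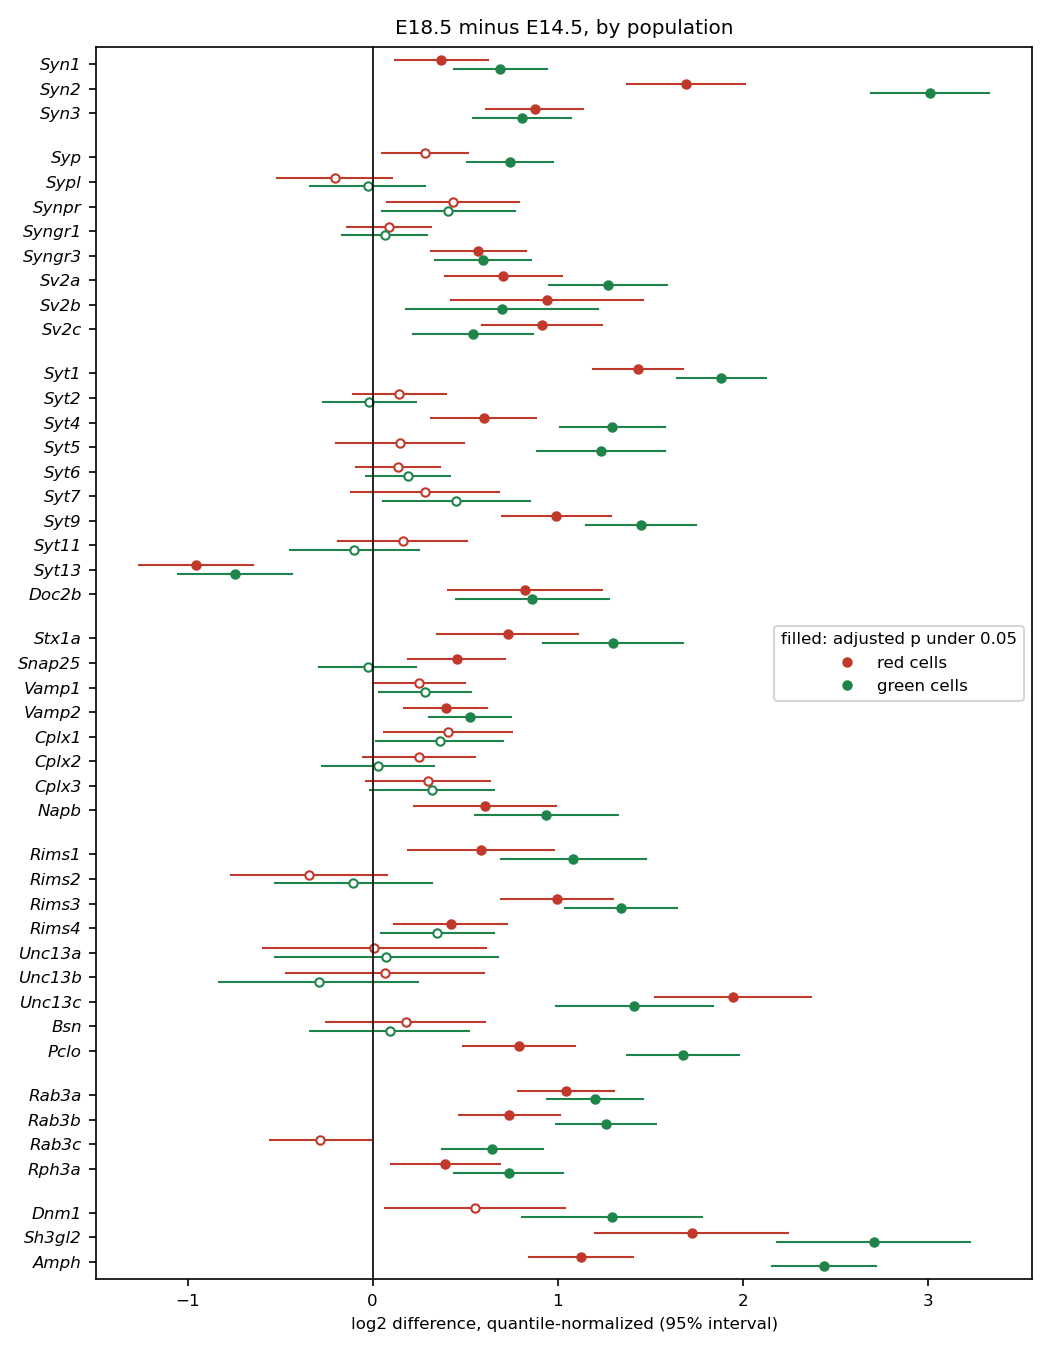
E18.5 minus E14.5 difference in quantile-normalized log2 signal for each member in red and in green cells, with 95% intervals from limma; filled points have an adjusted p under 0.05. Syn2, Sh3gl2 and Amph in green cells lie farthest to the right, at 3.01, 2.71 and 2.44, and Syt13 is the one member left of 0 with filled points in both populations.

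All 3 synapsins, which coat vesicles and tether them in the reserve pool, rose in both populations. Syn2 signals were 7.50, 7.26 and 7.07 in E18.5 red cells, against 5.65, 5.59 and 5.50 in E14.5 red cells, and 8.40, 8.51 and 7.82 in E18.5 green cells, against 5.16, 5.24 and 5.28 in E14.5 green cells. Every E18.5 signal lay above every E14.5 signal, and the E18.5 minus E14.5 difference was 1.69 (SE 0.15, limma adjusted p = 2.7e-06) in red cells. In green cells it was 3.01 (SE 0.15, limma adjusted p = 7.08e-09), an 8.08-fold higher signal. As deposited, the E14.5 green signals of Syn2 were 4.80, 4.86 and 4.89. They lay below 5.07, the mean level under which genes were left out, so the fold starts from low signals. Syn3 signals were 8.73, 8.46 and 8.19 in E18.5 red cells, against 7.58, 7.63 and 7.54 in E14.5 red cells, and 8.38, 8.26 and 8.30 in E18.5 green cells, against 7.56, 7.64 and 7.32 in E14.5 green cells. The groups did not overlap, with differences of 0.88 (SE 0.12, limma adjusted p = 0.000156) in red cells and 0.81 (SE 0.12, limma adjusted p = 0.000163) in green cells. Syn1 signals were 7.51, 7.97 and 7.75 in E18.5 red cells, against 7.25, 7.54 and 7.33 in E14.5 red cells, and 7.62, 7.70 and 7.72 in E18.5 green cells, against 6.96, 7.08 and 6.93 in E14.5 green cells. Syn1, the synapsin with the smallest shift, overlapped between stages in red cells, where one E14.5 array exceeded one E18.5 array. Its difference was 0.37 (SE 0.12, limma adjusted p = 0.0276) in red cells and 0.69 (SE 0.12, limma adjusted p = 0.000378) in green cells. The call for Syn1 in red cells was lost in 6 of the 14 other settings, at an adjusted p of up to 0.198 with each array centred on its median.

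Of the 8 vesicle membrane proteins, 4 rose in red cells and 5 in green cells. The SV2 glycoproteins, which span the vesicle membrane many times and serve as receptors for botulinum toxin, were all among them. Sv2a signals were 8.19, 8.56 and 8.53 in E18.5 red cells, against 7.86, 7.68 and 7.63 in E14.5 red cells, and 8.44, 8.83 and 8.40 in E18.5 green cells, against 7.21, 7.43 and 7.21 in E14.5 green cells. Sv2a did not overlap between stages in either population, and differed by 0.71 (SE 0.15, limma adjusted p = 0.00275) in red cells and by 1.27 (SE 0.15, limma adjusted p = 1.57e-05) in green cells. The red call for Sv2a was lost with each array centred on its median (0.61, limma adjusted p = 0.068). Sv2c signals were 6.70, 6.43 and 6.37 in E18.5 red cells, against 5.65, 5.43 and 5.68 in E14.5 red cells, and 5.85, 6.21 and 5.86 in E18.5 green cells, against 5.60, 5.40 and 5.29 in E14.5 green cells. Sv2c likewise did not overlap, with 0.92 (SE 0.15, limma adjusted p = 0.000524) in red and 0.54 (SE 0.15, limma adjusted p = 0.0122) in green cells. The green call for Sv2c was lost without E18.5 green replicate 2 (0.42, limma adjusted p = 0.0964). As deposited, the E14.5 green mean of Sv2c was 5.03, below the level of 5.07 under which genes were left out. Sv2b signals were 6.21, 7.03 and 6.83 in E18.5 red cells, against 5.84, 5.38 and 6.02 in E14.5 red cells, and 7.34, 7.76 and 7.31 in E18.5 green cells, against 6.69, 6.82 and 6.82 in E14.5 green cells. Sv2b was lowest on the E14.5 red arrays, and its rise of 0.94 (SE 0.24, limma adjusted p = 0.00961) in red cells was the largest of this group there. It was short of the threshold without E18.5 red replicate 2 (0.77, limma adjusted p = 0.0595). Its 0.70 in green cells (limma adjusted p = 0.0366) lost the threshold without any of the 6 compared green arrays, at an adjusted p of up to 0.18. Among the tetraspan proteins Syngr3, a synaptogyrin, rose by 0.57 in red cells (limma adjusted p = 0.00278) and by 0.60 in green cells (limma adjusted p = 0.00144). Synaptophysin (Syp) rose by 0.74 in green cells (limma adjusted p = 0.000117) and differed by 0.28 in red cells, short of the threshold. Synaptoporin (Synpr) differed by 0.43 and 0.41 in red and green cells and passed in neither. Sypl, a relative of synaptophysin found in many tissues, differed by -0.21 (95% interval -0.52 to 0.11) in red cells and -0.03 (95% interval -0.34 to 0.28) in green cells. For Syngr1 the differences were 0.09 (95% interval -0.14 to 0.32) in red cells and 0.06 (95% interval -0.16 to 0.29) in green cells.

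The calcium sensors split. Syt1 and Syt9, which trigger fast release, rose in both populations, as did Syt4 and the soluble sensor Doc2b. Syt5 rose in green cells. Syt13, a synaptotagmin without calcium-binding residues, fell in both. Syt1 signals were 10.63, 10.59 and 10.30 in E18.5 red cells, against 9.06, 9.03 and 9.12 in E14.5 red cells, and 9.99, 10.02 and 9.97 in E18.5 green cells, against 8.23, 7.94 and 8.15 in E14.5 green cells. The stages were separated by more than 1 log2 unit in each population, with differences of 1.43 (SE 0.11, limma adjusted p = 9.17e-07) in red cells and 1.89 (SE 0.11, limma adjusted p = 3.02e-08) in green cells. Syt9 signals were 6.68, 7.38 and 7.13 in E18.5 red cells, against 6.05, 6.16 and 6.00 in E14.5 red cells, and 6.99, 7.14 and 7.02 in E18.5 green cells, against 5.56, 5.52 and 5.72 in E14.5 green cells. Again no signals overlapped, and the differences were 0.99 (SE 0.14, limma adjusted p = 0.000139) in red cells and 1.45 (SE 0.14, limma adjusted p = 2.34e-06) in green cells. Syt13 signals were 9.45, 9.49 and 9.35 in E18.5 red cells, against 10.25, 10.53 and 10.37 in E14.5 red cells, and 9.32, 9.25 and 9.22 in E18.5 green cells, against 10.26, 9.96 and 9.80 in E14.5 green cells. All E18.5 signals lay below all E14.5 signals, with differences of -0.95 in red cells (SE 0.14, limma adjusted p = 0.000274) and -0.74 in green cells (SE 0.14, limma adjusted p = 0.0011). As deposited, Syt13 in green cells differed by -0.10 and did not pass (limma adjusted p = 0.598), where the median gene differed by 0.61.

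Syt4 signals were 10.81, 10.80 and 10.90 in E18.5 red cells, against 10.19, 10.20 and 10.33 in E14.5 red cells, and 11.01, 10.93 and 11.15 in E18.5 green cells, against 9.86, 9.56 and 9.79 in E14.5 green cells. Syt4, which marks dense-core vesicles and senses calcium weakly or not at all, rose by 0.60 (SE 0.13, limma adjusted p = 0.00388) in red cells and by 1.29 (SE 0.13, limma adjusted p = 4.69e-06) in green cells. Its other 2 transcript clusters differed by 0.89 and 0.68 in red cells and by 2.10 and 2.10 in green cells. The red call for Syt4 was lost with each array centred on its median (0.42, limma adjusted p = 0.101). Syt5 signals were 7.36, 7.60 and 7.28 in E18.5 red cells, against 7.41, 7.08 and 7.31 in E14.5 red cells, and 7.73, 7.95 and 7.30 in E18.5 green cells, against 6.42, 6.38 and 6.47 in E14.5 green cells. Syt5 overlapped between stages in red cells, with 0.15 (95% interval -0.20 to 0.49), and did not in green cells, where it rose by 1.24 (SE 0.16, limma adjusted p = 4.33e-05). Doc2b rose by 0.82 in red cells (limma adjusted p = 0.00582) and by 0.86 in green cells (limma adjusted p = 0.00309). As deposited, its E14.5 mean was 5.10 in red cells, near the level of 5.07 under which genes were left out. In green cells it was 4.82, below that level. Syt7, the sensor of slow release, differed by 0.28 in red cells and 0.45 in green cells and passed in neither. The intervals for Syt2, Syt6 and Syt11 all held 0. For Syt2, the fast sensor of hindbrain synapses, they ran from -0.11 to 0.39 in red cells and from -0.27 to 0.23 in green cells.

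**Figure D3:**
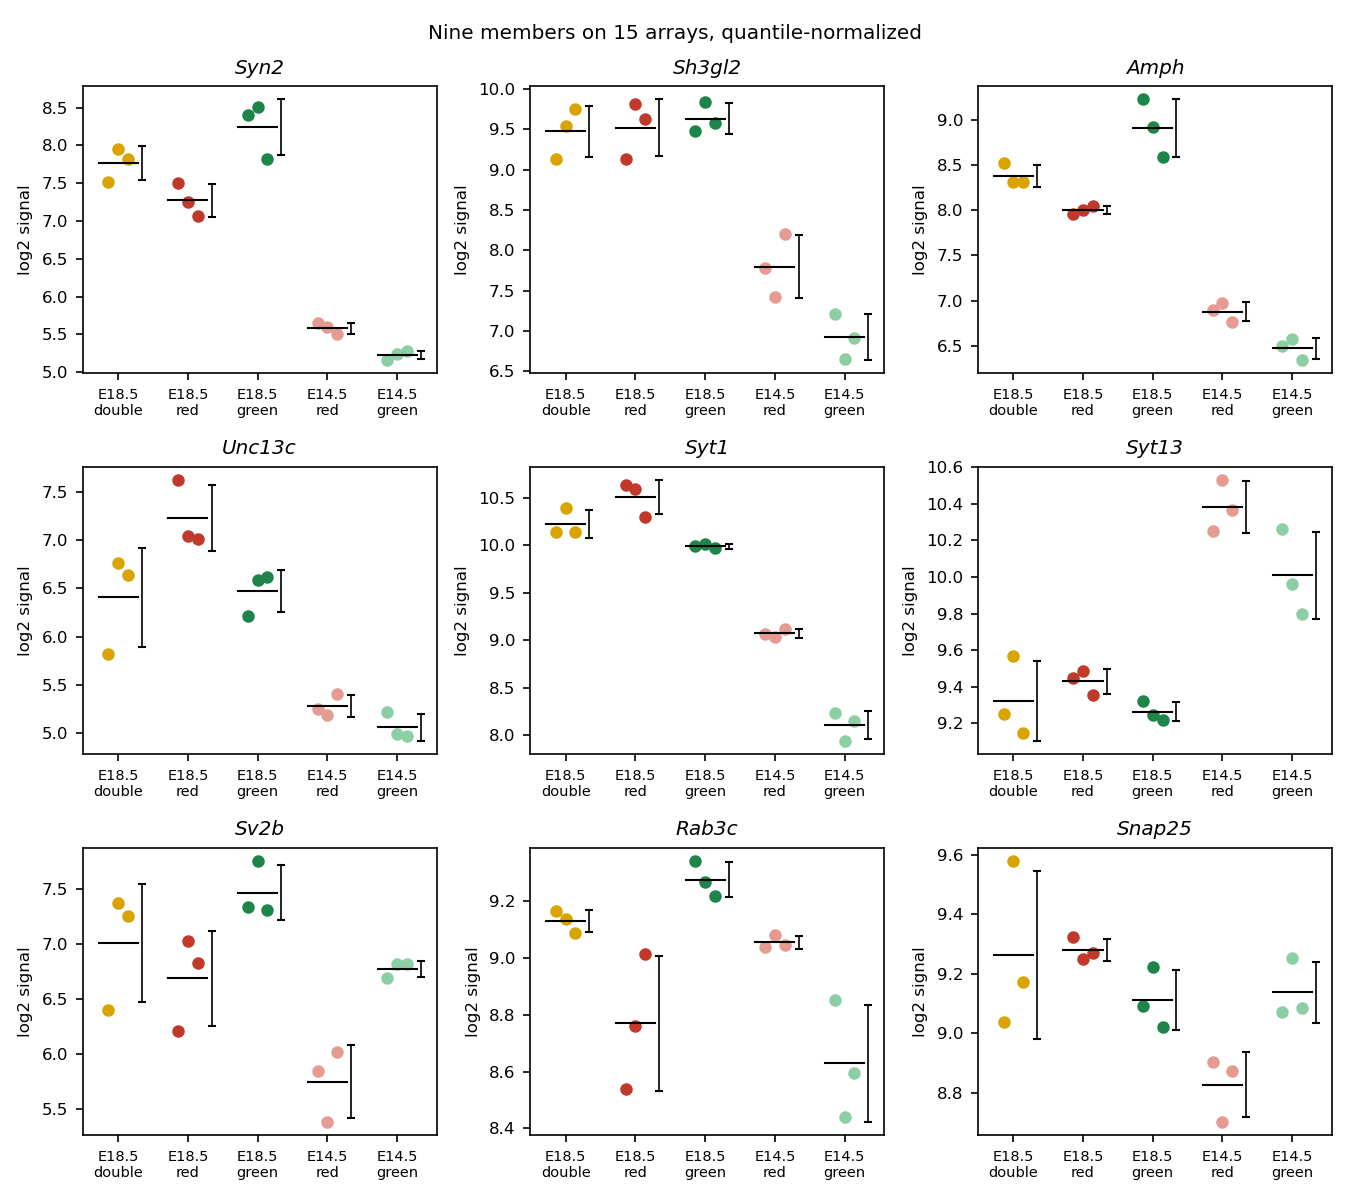
Quantile-normalized log2 signal of 9 members on every array, by group (points are arrays, lines are group means, and bars beside them are SDs of the 3 arrays; each panel has its own axis, which does not start at 0). Syn2 and Amph are highest in E18.5 green cells, Unc13c in E18.5 red cells and Syt13 in E14.5 red cells, and Sv2b is lowest in E14.5 red cells.

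Of the 8 genes for SNAREs, complexins and the SNAP adaptor, 4 rose in red cells and 3 in green cells. Stx1a signals were 9.58, 8.77 and 9.09 in E18.5 red cells, against 8.38, 8.55 and 8.31 in E14.5 red cells, and 9.15, 8.73 and 9.04 in E18.5 green cells, against 7.84, 7.62 and 7.57 in E14.5 green cells. Stx1a, the syntaxin of the presynaptic membrane, rose the most of this group, by 0.73 (SE 0.18, limma adjusted p = 0.00685) in red cells and by 1.30 (SE 0.18, limma adjusted p = 6.2e-05) in green cells. Its vesicle partner Vamp2 (synaptobrevin) rose by 0.40 in red cells (limma adjusted p = 0.0111) and 0.53 in green cells (limma adjusted p = 0.00128). Napb, an adaptor that recruits the ATPase which takes spent SNARE complexes apart, rose by 0.61 in red cells (limma adjusted p = 0.0204) and 0.94 in green cells (limma adjusted p = 0.000977), and its red call was lost in 5 of the 14 other settings. Snap25 signals were 9.32, 9.25 and 9.27 in E18.5 red cells, against 8.90, 8.70 and 8.87 in E14.5 red cells, and 9.09, 9.22 and 9.02 in E18.5 green cells, against 9.07, 9.26 and 9.09 in E14.5 green cells. Snap25, the third SNARE, rose by 0.45 (SE 0.12, limma adjusted p = 0.0124) in red cells, and its stages overlapped in green cells, with -0.03 (95% interval -0.29 to 0.24). The red calls for Snap25 and Vamp2 were lost with each array centred on its median (0.34 and 0.29, limma adjusted p = 0.24 and 0.21). Vamp1 and the complexins Cplx1, Cplx2 and Cplx3 passed in neither population, with differences from 0.25 to 0.41 in red cells and from 0.03 to 0.36 in green cells.

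Active-zone and priming genes fell into a group that rose and a group that did not. Of 9, 5 rose in red cells (Rims1, Rims3, Rims4, Unc13c and Pclo) and 4 in green cells (the same without Rims4). Unc13c signals were 7.62, 7.04 and 7.02 in E18.5 red cells, against 5.25, 5.18 and 5.40 in E14.5 red cells, and 6.22, 6.59 and 6.61 in E18.5 green cells, against 5.22, 4.99 and 4.97 in E14.5 green cells. Unc13c, one of the Munc13 priming proteins and best known from cerebellar granule cells, had the largest rise of any member in red cells, at 1.95 (SE 0.20, limma adjusted p = 9.77e-06), and rose by 1.42 (SE 0.20, limma adjusted p = 7.42e-05) in green cells. As deposited, its E14.5 signals were 4.91, 4.86 and 5.001 in red cells and 4.85, 4.66 and 4.64 in green cells. All lay below 5.07, the mean level under which genes were left out, so both rises start from low signals. Pclo signals were 9.03, 8.48 and 8.66 in E18.5 red cells, against 7.92, 8.07 and 7.81 in E14.5 red cells, and 8.80, 8.55 and 8.61 in E18.5 green cells, against 7.14, 6.78 and 6.98 in E14.5 green cells. Pclo (piccolo), a giant scaffold of the active zone, rose by 0.79 (SE 0.14, limma adjusted p = 0.000949) in red cells and by 1.68 (SE 0.14, limma adjusted p = 8.04e-07) in green cells, with no overlap. Rims3 signals were 7.62, 7.38 and 7.38 in E18.5 red cells, against 6.57, 6.49 and 6.33 in E14.5 red cells, and 7.38, 7.32 and 7.30 in E18.5 green cells, against 6.17, 6.11 and 5.70 in E14.5 green cells. Rims3, a short RIM protein, rose by 0.998 (SE 0.14, limma adjusted p = 0.000162) in red cells and by 1.34 (SE 0.14, limma adjusted p = 6.31e-06) in green cells. Rims1, which tethers calcium channels and Rab3 vesicles, rose by 0.59 in red cells (limma adjusted p = 0.0272) and 1.09 in green cells (limma adjusted p = 0.000386). The red call was lost in 6 of the 14 other settings, and without E18.5 red replicate 1 the difference was 0.38 (limma adjusted p = 0.138). Rims4 differed by 0.42 in red cells (limma adjusted p = 0.0379) and by 0.19 without that array, and 6 of its 9 E18.5 arrays shared 1 identical value as deposited. Rims2 signals were 8.90, 8.21 and 8.44 in E18.5 red cells, against 9.03, 9.02 and 8.54 in E14.5 red cells, and 8.20, 7.79 and 8.02 in E18.5 green cells, against 8.32, 8.09 and 7.91 in E14.5 green cells. Rims2 overlapped in both populations and differed by -0.35 (95% interval -0.77 to 0.08) in red cells and -0.10 (95% interval -0.53 to 0.32) in green cells. Unc13b signals were 8.26, 7.16 and 7.46 in E18.5 red cells, against 7.54, 7.71 and 7.43 in E14.5 red cells, and 7.58, 6.90 and 7.28 in E18.5 green cells, against 7.59, 7.53 and 7.53 in E14.5 green cells. Unc13b differed by 0.07 (95% interval -0.47 to 0.60) in red cells and -0.29 (95% interval -0.83 to 0.25) in green cells, and red replicate 1 was its highest array. Unc13a, the main priming protein of glutamatergic synapses, differed by 0.01 (95% interval -0.59 to 0.61) in red cells and 0.07 (95% interval -0.53 to 0.68) in green cells. Bsn (bassoon) differed by 0.18 (95% interval -0.25 to 0.61) and 0.09 (95% interval -0.34 to 0.52) in red and green cells. Shifts inside those intervals are not excluded with 3 arrays a group.

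Rab3a signals were 9.53, 9.76 and 9.54 in E18.5 red cells, against 8.40, 8.62 and 8.67 in E14.5 red cells, and 9.51, 9.51 and 9.46 in E18.5 green cells, against 8.47, 8.27 and 8.13 in E14.5 green cells. Rab3a, the main Rab GTPase of synaptic vesicles, rose by 1.04 (SE 0.12, limma adjusted p = 3.21e-05) in red cells and by 1.20 (SE 0.12, limma adjusted p = 4.13e-06) in green cells, with no overlap. Rab3b signals were 6.84, 7.35 and 7.12 in E18.5 red cells, against 6.35, 6.29 and 6.45 in E14.5 red cells, and 7.37, 7.58 and 7.40 in E18.5 green cells, against 6.06, 6.26 and 6.25 in E14.5 green cells. Its relative Rab3b also did not overlap, at 0.74 (SE 0.13, limma adjusted p = 0.000713) in red cells and 1.26 (SE 0.13, limma adjusted p = 4.16e-06) in green cells. The Rab3 effector rabphilin (Rph3a) rose by 0.39 in red cells (limma adjusted p = 0.0453), a call lost in 6 of the 14 other settings (0.24 without E18.5 red replicate 1, limma adjusted p = 0.201), and by 0.73 in green cells (limma adjusted p = 0.000848). Rab3c signals were 8.54, 8.76 and 9.01 in E18.5 red cells, against 9.04, 9.08 and 9.04 in E14.5 red cells, and 9.34, 9.27 and 9.22 in E18.5 green cells, against 8.85, 8.44 and 8.59 in E14.5 green cells. In red cells all 3 E18.5 signals lay below the E14.5 ones, at -0.28 (95% interval -0.56 to -0.01) and short of the threshold, while in green cells Rab3c rose by 0.65 (SE 0.13, limma adjusted p = 0.00124). A second Rab3c cluster differed by -0.10 in red cells and -0.13 in green cells, and with the mean of both clusters the green difference was 0.26 and did not pass (limma adjusted p = 0.307).

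The endocytosis genes shifted the most as a group, by a median of 1.13 in red cells and 2.44 in green cells over 3 genes. Sh3gl2 signals were 9.13, 9.81 and 9.63 in E18.5 red cells, against 7.78, 7.42 and 8.20 in E14.5 red cells, and 9.47, 9.84 and 9.58 in E18.5 green cells, against 7.22, 6.65 and 6.91 in E14.5 green cells. Endophilin A1 (Sh3gl2), which bends the membrane of the bud, rose by 1.72 (SE 0.24, limma adjusted p = 0.000158) in red cells and by 2.71 (SE 0.24, limma adjusted p = 1.4e-06) in green cells. Its 2 other clusters differed from each other in sign, at 0.77 and -0.39 in red cells and 0.92 and -0.44 in green cells. Amph signals were 7.96, 8.004 and 8.05 in E18.5 red cells, against 6.89, 6.97 and 6.77 in E14.5 red cells, and 9.23, 8.92 and 8.59 in E18.5 green cells, against 6.50, 6.57 and 6.34 in E14.5 green cells. Amphiphysin (Amph), which brings dynamin to the bud, rose by 1.13 (SE 0.13, limma adjusted p = 3.23e-05) in red cells and by 2.44 (SE 0.13, limma adjusted p = 1.31e-08) in green cells, and no signals overlapped between stages. Dnm1 signals were 9.56, 8.57 and 8.79 in E18.5 red cells, against 8.43, 8.70 and 8.13 in E14.5 red cells, and 8.73, 8.60 and 8.27 in E18.5 green cells, against 7.45, 7.14 and 7.15 in E14.5 green cells. Dynamin 1 (Dnm1), the GTPase that cuts the bud off, overlapped in red cells, at 0.55 (95% interval 0.06 to 1.04), and rose by 1.29 (SE 0.23, limma adjusted p = 0.000513) in green cells.

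Genes of the same pathway outside the 45, listed by function, were counted in the same fit. Of 38 tested release and docking genes, 17 rose and 2 fell in red cells and 21 rose and 1 fell in green cells, with medians of 0.28 and 0.51. The smallest adjusted p in red cells belonged to Syt3 (1.75), Syt17 (1.62), Stxbp6 (1.26), a syntaxin-binding protein, and Syt10 (0.96), and in green cells to Syt17 (2.04), Stxbp6 (1.49), Syt3 (1.56) and Rab27b (0.99). Of 20 other vesicle endocytosis genes, 6 rose and 1 fell in red cells and 8 rose and 2 fell in green cells. Snap91, a clathrin assembly protein of synapses, differed by 0.97 and 1.63 in red and green cells, the clathrin light chain Cltb by 0.76 and 1.33, Dnm3 by 0.94 and 1.70 and Clta by 0.52 and 0.66, all past the threshold. Of 11 subunits of the proton pump that acidifies vesicles, 2 rose in red cells and 5 in green cells, where 13.7% and 16.8% of all genes were called higher. Atp6v0a1, with the smallest adjusted p of the list in each, differed by 0.50 and 0.59, and Atp6ap2 by 0.58 in red cells, short of the threshold, and by 0.95 in green cells, past it. Of 7 vesicular transmitter transporters, 1 rose in each population, a share near that of all genes, Slc32a1 of inhibitory neurons, by 0.73 in red and 0.36 in green cells. As deposited, every E14.5 signal of Slc32a1, Rab27b and Syt10 lay below 5.07, the mean level under which genes were left out. Their rises thus start from low signals.

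Markers of cell types were counted in the same fit. Of all genes tested, 13.7% were called higher and 15.6% lower in red cells, and 16.8% and 18.9% in green cells. Of 12 neural progenitor genes, 2 rose and 4 fell in red cells and 8 fell in green cells, among them Neurog2 (-1.82), Nes (-1.23), Mki67 (-1.84) and Top2a (-1.80). The mean of the progenitor list was 6.58 to 6.90 on the E18.5 red arrays and 6.38 to 6.57 on the E18.5 green arrays, against 6.81 to 7.06 on the E14.5 red arrays and 7.18 to 7.32 on the E14.5 green arrays. Of 11 neuron genes, 3 rose and 1 fell in red cells and 6 rose in green cells. The neuron mean was 9.88 to 9.98 on the E18.5 red arrays and 9.78 to 9.84 on the E18.5 green arrays, against 9.76 to 9.84 on the E14.5 red arrays and 9.27 to 9.51 on the E14.5 green arrays. The means of the astrocyte, oligodendrocyte-lineage, microglia, endothelial and meningeal lists stayed between 5.04 and 5.81 on all 15 arrays. In these lists, in that order, 7, 5, 7, 6 and 4 genes were tested. In red cells 2, 1, 1, 1 and 0 rose and 1, 1, 0, 1 and 0 fell. In green cells 1, 0, 1, 2 and 0 rose and 1, 1, 0, 0 and 0 fell. Of 9 thalamic genes 3 fell in red cells, and 1 rose and 2 fell in green cells. Of 6 GABAergic and prethalamic genes 1 rose and 2 fell in red cells, and 1 rose in green cells. The erythroid list, of 2 globin genes, averaged 6.01 to 6.73 on the E14.5 red arrays, against 5.17 to 5.19 on the E14.5 green arrays and 4.77 to 5.01 on the E18.5 arrays. In sorted bulk samples fewer cells of a type and less RNA per cell cannot be told apart, and the part of these markers in the stage differences was not tested.

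**Figure D4:**
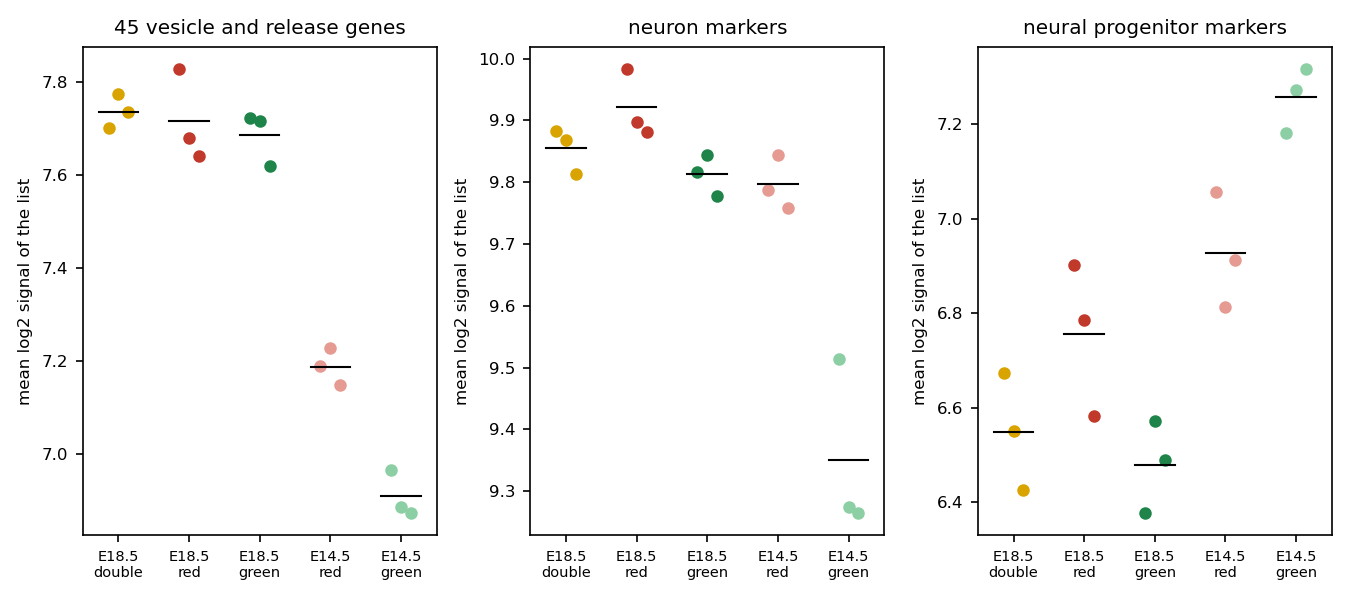
Mean quantile-normalized log2 signal of the 45 members, of 11 neuron markers and of 12 neural progenitor markers on each array, by group (points are arrays, lines are group means; the axes differ and do not start at 0). E14.5 green arrays are lowest for the members and the neuron markers and highest for the progenitor markers.

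At E14.5, red cells had higher signals than green cells for 16 of the 45 members and a lower signal for 1, where 5.24% of all genes tested were called higher and 5% lower. The difference was above 0 for 37 members, with a median of 0.21 beside 0.00 over all genes. All 3 endocytosis genes, 4 of 10 calcium sensors, 4 of 9 active-zone genes, 2 of 8 SNARE-complex genes and 1 gene each of the synapsins, vesicle membrane proteins and Rab3 group were higher. In a fit without stage weights, which pools the wider E18.5 spread, 6 of the 17 passed (Dnm1, Pclo, Syt1, Stx1a, Rims1 and Rims2), the same 6 that passed in all 14 other settings.

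Dnm1 signals as deposited were 8.03, 8.24 and 7.81 in red cells, against 7.09, 6.77 and 6.79 in green cells. The groups were wide apart, with a red minus green difference of 1.14 (SE 0.12, limma adjusted p = 3.34e-05), the largest of the members. Pclo signals as deposited were 7.51, 7.58 and 7.51 in red cells, against 6.78, 6.39 and 6.62 in green cells, a difference of 0.94 (SE 0.10, limma adjusted p = 2.15e-05). Syt1 signals as deposited were 8.68, 8.59 and 8.79 in red cells, against 7.89, 7.60 and 7.82 in green cells, a difference of 0.92 (SE 0.10, limma adjusted p = 2.99e-05). Red cells thus had the higher signal on each array for the main dynamin, a scaffold and the main fast calcium sensor. Syt5 signals as deposited were 7.01, 6.63 and 6.99 in red cells, against 6.01, 5.97 and 6.07 in green cells, a difference of 0.86 (SE 0.15, limma adjusted p = 0.00153). Sh3gl2 signals as deposited were 7.37, 6.96 and 7.87 in red cells, against 6.86, 6.24 and 6.54 in green cells, a difference of 0.86 (SE 0.23, limma adjusted p = 0.0254). The red arrays of Sh3gl2 spread over nearly 1 log2 unit, and its call was lost in 8 of the 14 other settings. Its other 2 clusters differed by 0.36 and -0.43, and the mean of all 3 by 0.26 (limma adjusted p = 0.24). Stx1a signals as deposited were 7.99, 8.08 and 7.99 in red cells, against 7.49, 7.28 and 7.24 in green cells, a difference of 0.69 (SE 0.09, limma adjusted p = 0.000128). Rims1 signals as deposited were 7.34, 7.55 and 7.39 in red cells, against 6.996, 6.59 and 6.69 in green cells, a difference of 0.67 (SE 0.10, limma adjusted p = 0.000496). Rims2 signals as deposited were 8.65, 8.57 and 8.22 in red cells, against 7.98, 7.75 and 7.58 in green cells, a difference of 0.71 (SE 0.12, limma adjusted p = 0.000881). No signals of these 3 genes overlapped between the populations.

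The other members called higher in E14.5 red cells were Syp (0.51), Rims3 (0.49), Syt9 (0.49), Rph3a (0.45), Cplx1 (0.43), Syt4 (0.42), Amph (0.41) and Syn1 (0.36), with limma adjusted p from 0.00235 to 0.0457. The calls for Syt9, Cplx1, Syt4, Amph and Syn1 were each lost with at least 1 of the 6 arrays left out. Sv2b ran the other way. Sv2b signals as deposited were 5.47, 5.04 and 5.62 in red cells, against 6.30, 6.42 and 6.45 in green cells. Every red array lay below every green array, with a difference of -1.01 (SE 0.18, limma adjusted p = 0.00159), so within the SV2 family the b form differed in sign from Sv2a (0.40) and Sv2c (0.18), neither of which passed. Snap25 (-0.40, limma adjusted p = 0.0604) and Syt11 (-0.38, limma adjusted p = 0.138) were also below 0 without passing. Members nearest 0 were Syt2 (-0.02), Sypl (-0.02), Rims4 (0.02), Syn3 (0.03) and Bsn (0.03).

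**Figure D5:**
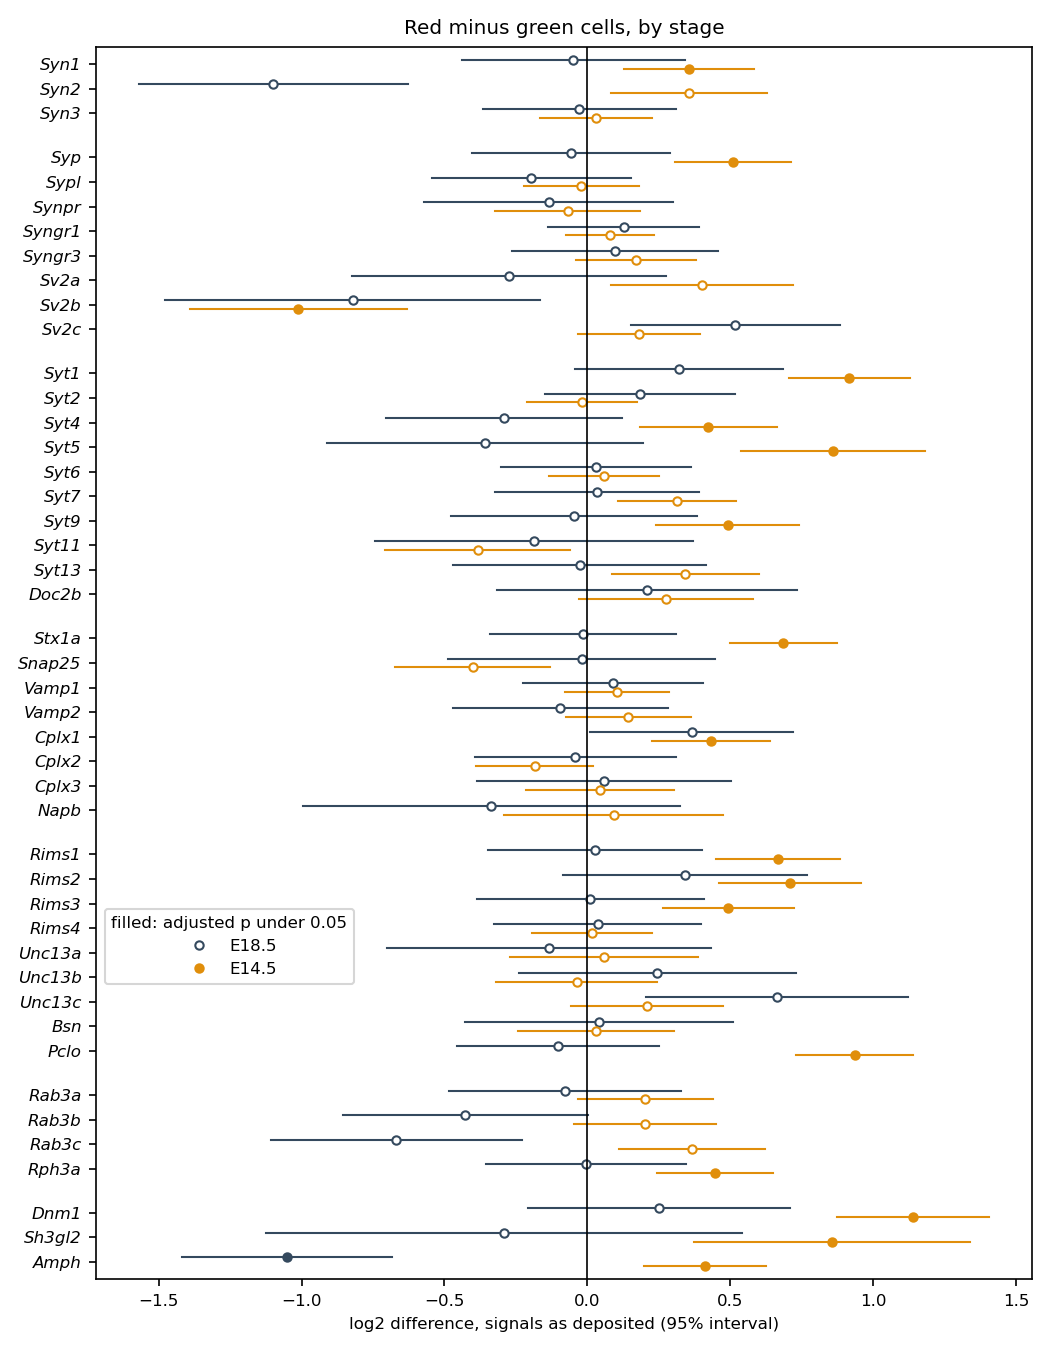
Red minus green difference in log2 signal as deposited for each member at E18.5 and at E14.5, with 95% intervals from limma; filled points have an adjusted p under 0.05. At E14.5 most points lie right of 0, up to 1.14 for Dnm1, with Sv2b at -1.01; at E18.5 they scatter around 0, with Amph at -1.05 and Syn2 at -1.10.

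Marker genes differed between the same arrays, where 5.24% of all genes tested were called higher and 5% lower. Of 11 neuron genes, 5 were higher in E14.5 red cells (Mapt by 0.83, Nefm by 1.12, Nefl by 1.26, Dcx by 0.59 and Stmn2) and 1 lower. Of 12 progenitor genes, 6 were lower, among them Top2a (-1.89), Mki67 (-1.17) and Nes (-0.54), and 1 was higher (Slc1a3, 1.01). The embryonic globin Hbb-y was higher by 1.46. Of the GABAergic and prethalamic genes Gad2 (0.82) and Isl1 (0.77) were higher. Of the thalamic list Lhx9 (-0.89), Lhx2 (-1.03) and Gbx2 (-0.77) were lower and Rora (1.06), Prox1 and Lef1 higher. The part of any of these in the member differences was not tested. Among the other pathway genes, 6 of 38 release and docking genes were higher and 0 lower, among them Stx3 (0.97), Cadps (0.81), which primes dense-core vesicles, Stxbp6 (0.69) and Rimbp2 (0.68). Of 20 endocytosis genes 3 were higher (Dnm3 by 0.99, Snap91 by 0.62 and Cltb by 0.56), and of 7 transporters 1, the monoamine transporter Slc18a2 by 1.92. None of the 11 proton pump subunits passed limma's test, and 1 had an unadjusted p under 0.05.

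At E18.5, red and green cells differed in 1 of the 45 members by limma, Amph, which was lower in red cells, where 0.132% of all genes were called higher and 0.132% lower. An unadjusted p under 0.05 was found for 7 members and 6.17% of all genes. Amph signals as deposited were 7.97, 8.28 and 8.35 in red cells, against 9.52, 9.32 and 8.90 in green cells. No arrays overlapped, and the difference was -1.05 (SE 0.17, limma adjusted p = 0.0186). That call was lost without any one of the red arrays or without green replicate 1 or 2, at an adjusted p of up to 0.159. Syn2 signals as deposited were 7.57, 7.51 and 7.35 in red cells, against 8.69, 8.91 and 8.13 in green cells. Syn2 arrays did not overlap either, with -1.10 (SE 0.22, limma adjusted p = 0.0616), past the threshold after quantile normalization (adjusted p = 0.0304), without stage weights (adjusted p = 0.0263), with a replicate block (adjusted p = 0.0236) and without the pair of narrow-range arrays (adjusted p = 0.00585). Rab3c (-0.67), Sv2b (-0.82), Unc13c (0.66), Sv2c (0.52) and Cplx1 (0.36) made up the rest of the 7. The second Rab3c cluster differed by 0.41, the opposite sign, and the mean of both by -0.13 (limma adjusted p = 0.856). Syt4 differed by -0.29 on the cluster used, and by -0.97 and -1.07 on its other 2 clusters. Over the 45 members the median was -0.03, beside -0.01 over all genes. Of 9 thalamic markers, Gbx2 among them, limma called 2 lower in red cells. 8 of the 9 had an unadjusted p under 0.05, with a median of -0.45 over the list. The difference was below 0 for 7 of the 9. It was above 0 for 2, Rora and Lef1, whose red arrays all lay above the green ones. An unadjusted p under 0.05 was also found for 3 of 12 progenitor, 2 of 6 GABAergic and prethalamic, 2 of 5 oligodendrocyte-lineage and 1 of 6 endothelial genes. It was found for 0 of 11 neuron, 0 of 7 astrocyte, 0 of 7 microglia and 0 of 4 meningeal genes. The part of these markers in the member differences was not tested.

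The double-labelled cells of E18.5 were set against each single-labelled population. Against green cells limma called 0 members and 0 genes (0%), with 4 members and 3.12% of all genes at an unadjusted p under 0.05. Against red cells it called 0 members, where 0.0481% of all genes were called in either direction, with 6 members and 2.55% of all genes at an unadjusted p under 0.05. With the replicate number as a block, which pairs red and double-labelled arrays, it called 0 members too. The differences and intervals that follow are from the fit without that block. Amph signals as deposited were 8.43, 8.73 and 8.63 in double-labelled cells, between the red and the green arrays without overlap. The differences were -0.65 (95% interval -1.02 to -0.29) from green cells and 0.40 (95% interval 0.03 to 0.77) from red cells. Syn2 signals in double-labelled cells were 7.47, 8.36 and 8.14, at -0.59 (95% interval -1.06 to -0.12) from green and 0.51 (95% interval 0.04 to 0.98) from red cells. Doc2b signals were 6.76, 7.64 and 7.27 in double-labelled cells, against 6.76, 6.95 and 5.88 in red cells and 6.26, 6.48 and 6.23 in green cells. Doc2b thus reached its highest array there, at 0.90 (95% interval 0.38 to 1.43) from green and 0.70 (95% interval 0.17 to 1.22) from red cells. Unc13c signals were 6.18, 7.11 and 6.92 in double-labelled cells, against 7.67, 7.30 and 7.31 in red cells, all of which were higher, a difference of -0.69 (95% interval -1.15 to -0.23). Without double-labelled replicate 1 the difference was -0.41, and without both narrow-range arrays -0.28. The median over the members was 0.01 from green and 0.00 from red cells.

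Whether the red minus green difference itself changed with stage was tested as an interaction on the quantile-normalized signals. 5 of the 45 members had a lower red minus green difference at E18.5 than at E14.5 and 0 a higher one, where 0.583% of all genes were called lower and 0.679% higher. For Syn2 the change was -1.32 (SE 0.21, limma adjusted p = 0.00552): Syn2 rose by 1.69 in red cells and by 3.01 in green cells. The E14.5 green signals of Syn2 were low, as given above. For Amph the change was -1.31 (SE 0.19, limma adjusted p = 0.00238). Both passed in all 20 other settings, including each array left out. For Syt5 it was -1.09 (SE 0.23, limma adjusted p = 0.0299), with the stages overlapping in red cells alone. For Rab3c it was -0.93 (SE 0.18, limma adjusted p = 0.0186), but 0.03 on its second cluster and -0.45 with the mean of both (limma adjusted p = 0.663). For Pclo it was -0.89 (SE 0.20, limma adjusted p = 0.0443). Syt4 did not pass on the cluster used, while its other 2 clusters, which were not tested, changed by -1.21 and -1.42. The call for Rab3c was lost without any one of the 3 E18.5 green arrays, that for Syt5 without any one of 8 of the 12 arrays compared, and that for Pclo without any one of 9. 31 of the 45 members had the larger stage difference in green cells and 14 in red cells, where 50.7% of all genes had the larger one in green cells. Of the progenitor genes, Top2a (2.02), Mki67 (1.51) and Fabp7 (2.55) had a higher red minus green difference at E18.5 than at E14.5, and their part was not tested.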

How the data were processed

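Log2 signals per transcript cluster of 15 Affymetrix arrays, deposited by the authors, were used without a further transformation. Per the labels' protocols, biotinylated cDNA was made from 10 ng of total RNA by the Nugen Ovation Pico kit. Per the submitters' processing notes, Affymetrix Expression Console was used; its algorithm is not given in the sources used here, nor is whether the stages were normalized together. The number of arrays limits the precision.

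Of 33794 clusters, 23521 named 1 gene in the platform annotation and were used. For genes with several clusters (5 of the 45 members) the cluster with the highest mean was taken. The 25% of genes with the lowest mean were left out, which left 16635. A group-means model of all 15 arrays was fitted with limma 3.58.1 in R 4.3.3, with 1 weight per stage. The moderated test was two-sided, adjusted by Benjamini and Hochberg over all 16635 genes, with a threshold of 0.05. Comparisons within a stage used the signals as deposited, and those between stages used quantile-normalized signals. The procedure was tested on simulated data. Nothing says whether replicates came from separate litters, so p-values measure the spread between these samples. Promoter windows came from RefSeq (GRCm38.p6), matched by symbol.

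The members, their roles and the pathway and marker lists were chosen with earlier results of these data known. Values on every array were given for members that passed in a comparison (up to 12 per stage comparison) or were the largest or smallest of their role group, and up to 4 genes per other list were named by adjusted p. Unc13a, Bsn, Syngr1, Syt2, Doc2b and further members were described by difference alone. Whether replicate numbers pair arrays was checked by the correlation of deviations from the group means. Red and double-labelled arrays of E18.5 correlated at 0.669, 0.496 and 0.487. The main fit did not pair them, and pairing entered only through the replicate block among the alternatives. The value of 0.669 was between both narrow-range arrays. In the other comparisons not every pair correlated above 0.1. Across stages, where arrays came from different embryos, same-numbered pairs ran from -0.453 to 0.372. The correlations alone therefore do not show pairing. The alternatives were the scale, the filter, the mean of all clusters of a gene, no weights, only the arrays compared, a replicate block, each array left out, and both narrow-range E18.5 arrays left out. Figures were drawn with Python 3.11.15 and matplotlib 3.10.9.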

Additional observations from a re-analysis of the deposited data

Results flagged for a closer look

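The red minus green difference changed with stage by limma's interaction test for 5 members. The difference at E18.5 less that at E14.5 was -1.31 for Amph, -1.32 for Syn2, -1.09 for Syt5, -0.93 for Rab3c and -0.888 for Pclo, on the quantile-normalized log2 scale. For Amph, Syn2 and Rab3c the E18.5 signals were lower in red than in green cells on every array, while at E14.5 they were higher in red cells on every array. For Rab3c this holds on the cluster used; its second cluster differed by 0.41 at E18.5 and 0.44 at E14.5 as deposited, with a change of 0.03, and with both averaged the change was -0.45 and did not pass (limma adjusted p = 0.663). For Syt5 and Pclo the E18.5 groups overlapped and the E14.5 groups did not.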

How the results depend on the processing

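No called member changed sign in any setting. In E18.5 red against green cells, 1 member passed, and 2 after quantile normalization, without weights, with the replicate block and without the narrow-range arrays, 0 with the E18.5 arrays alone, and 0 to 1 with an array left out. In E14.5 red against green cells 17 passed, and 6 without weights, where the wider E18.5 spread is pooled; with an array left out it was 12 to 17. Between stages, 26 passed in red and 28 in green cells, and 43 in each as deposited, where the median gene differed by 0.60 in red and 0.61 in green cells; with an array left out it was 22 to 26 in red and 26 to 28 in green cells. For the change of the red minus green difference with stage, 5 passed, and 3 as deposited, 3 with arrays centred on their medians, 8 without the narrow-range arrays and 2 to 5 with an array left out. Where no cause is given, the cause was not tested. With the replicate block the counts were 2, 0 (double-labelled against green), 0 (double-labelled against red), 21, 27 (red stages), 29 (green stages) and 7. Except in E18.5 red against green cells the block moved no count by over 1.5 times. In both double-labelled comparisons 0 members passed in every setting. The calls held in all settings for 6 of 17, 16 of 26, 24 of 28 and 2 of 5 members. Whether a probe was above background was not assessed, since no detection values were used.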
